A study of Mus musculus with 24 samples.

Results

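Dec1 (Bhlhe40), Dec2 (Bhlhe41), Ciart and the inhibitor-of-DNA-binding genes Id1, Id2 and Id3 encode repressors that act on E-box-driven transcription, and all 6 were found by symbol among the 33079 genes of the expression table. They were followed in mouse embryonic stem (ES) cells of 2 genotypes, the Per2::Luciferase knock-in line (WT) and the same line deficient for Rev-erba and Rev-erbb (KO), which were differentiated through embryoid bodies for 28 days and given 100 nM dexamethasone, a glucocorticoid that aligns cellular clocks. Each genotype had 12 libraries, 1 for every 4 h from 12 to 56 h after dexamethasone, and each library held the pooled RNA of 3 embryoid bodies. In KO cells 1 exon of each Rev-erb gene was deleted with CRISPR/Cas9, the Rev-erbβ exon first and the Rev-erbα exon in the resulting mutant line, and the labels do not say how many clones were used, so an effect of the genotype and a difference between cell lines cannot be told apart. No time point has a replicate within a genotype, so the p-values below rest on the spread between time points. For rhythms and trends it is the spread left around the fitted curve.

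In the mammalian clock, CLOCK and BMAL1 bind E-boxes and turn on their own repressors. DEC1 and DEC2 are basic helix-loop-helix (bHLH) proteins that occupy E-boxes themselves and repress from there. CIART, also called CHRONO, binds BMAL1 and represses its activity. ID proteins have the helix-loop-helix but no basic region, so they pair with bHLH factors without binding DNA. They are widely used as readouts of bone morphogenetic protein (BMP) signalling, and REV-ERBα and REV-ERBβ are nuclear receptors that repress genes such as Bmal1.

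The E-box of the clock is bound by CLOCK and BMAL1 and by DEC1 and DEC2. The 250 bases before the start site are therefore shown for the members in which it was found. Of the forms of the E-box, only CACGTG and CACGTT were searched. Promoters from RefSeq (GRCm38.p6) matched 4 of the 6 symbols, Bhlhe40 and Id1 apart. Capitals mark the E-box CACGTG, which reads the same on both strands.
Ciart, chr3:95882229-95882478, minus strand: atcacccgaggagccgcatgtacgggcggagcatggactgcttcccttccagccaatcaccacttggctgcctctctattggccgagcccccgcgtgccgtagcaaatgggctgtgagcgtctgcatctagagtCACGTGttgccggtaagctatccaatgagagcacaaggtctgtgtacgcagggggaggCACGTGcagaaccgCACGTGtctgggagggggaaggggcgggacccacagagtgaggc
Bhlhe41, chr6:145865421-145865670, minus strand: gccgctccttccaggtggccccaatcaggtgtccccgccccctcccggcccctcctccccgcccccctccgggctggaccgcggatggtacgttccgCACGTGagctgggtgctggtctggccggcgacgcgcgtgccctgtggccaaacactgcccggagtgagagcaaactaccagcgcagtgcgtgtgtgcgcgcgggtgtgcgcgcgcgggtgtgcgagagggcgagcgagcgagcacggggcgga
The Ciart promoter held 3 E-boxes, with first bases at -116, -58 and -44 from the start site, and the Bhlhe41 promoter held 1, at -153. The matches did not overlap. Of the 32851 promoters of this length in the RefSeq table, 6.02% held at least 1 E-box and 20 promoters held 3 or more. The variant CACGTT, found in 3.85% of promoters, and the core AGGTCA of the REV-ERB response element, found in 14.0%, were each searched on both strands and matched in none of the 4 promoters. The GC-rich element GGCGCC, to which SMAD proteins of the BMP pathway bind, was found in 9.59% of promoters and, within the set, in Id2 alone, at -231.

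The 6 genes covered a wide range of levels, given as reads per kilobase of exon, scaled to the size of the library (RPKM). In WT cells Id3 was highest at 54.5 ± 7.44 RPKM (SD, n = 12 time points), followed by Id1 at 38.0 ± 7.28, Id2 at 16.2 ± 2.49 and Bhlhe40 at 14.2 ± 1.45. Bhlhe41 had 1.16 ± 0.159 RPKM and Ciart 0.698 ± 0.186 RPKM. The KO means were 48.7 ± 5.16 RPKM for Id3, 35.7 ± 3.63 for Id1, 17.5 ± 1.45 for Bhlhe40, 17.5 ± 2.10 for Id2, 1.35 ± 0.256 for Bhlhe41 and 0.939 ± 0.239 for Ciart (SD, n = 12 time points). In WT Bhlhe40 was thus 12.3 times as abundant as its paralog Bhlhe41 per length of transcript. Id3 exceeded Id1 in 12 of 12 WT and 12 of 12 KO libraries, although their ranges overlapped. Id2 and Bhlhe40 could not be ordered, since Id2 was the higher of the pair in 6 of 12 WT libraries and Bhlhe40 in 8 of 12 KO libraries. Bhlhe41 was above Ciart in 12 of 12 WT and 9 of 12 KO libraries. Precision followed depth. A library held a mean of 776.5 fragments of Bhlhe40 in WT and of only 16.7 fragments of Ciart. For Ciart, the variation expected from counting alone was 24.5% of the mean in WT, against 26.6% observed across time points. For Bhlhe40 the corresponding values were 3.59% and 10.2%. The observed variation did not follow depth throughout. In WT it was 19.2% for Id1, with a mean of 620.9 fragments, and 13.7% for Bhlhe41, with 122.4. Intervals below cover the spread between libraries, counting error included.

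**Figure D1:**
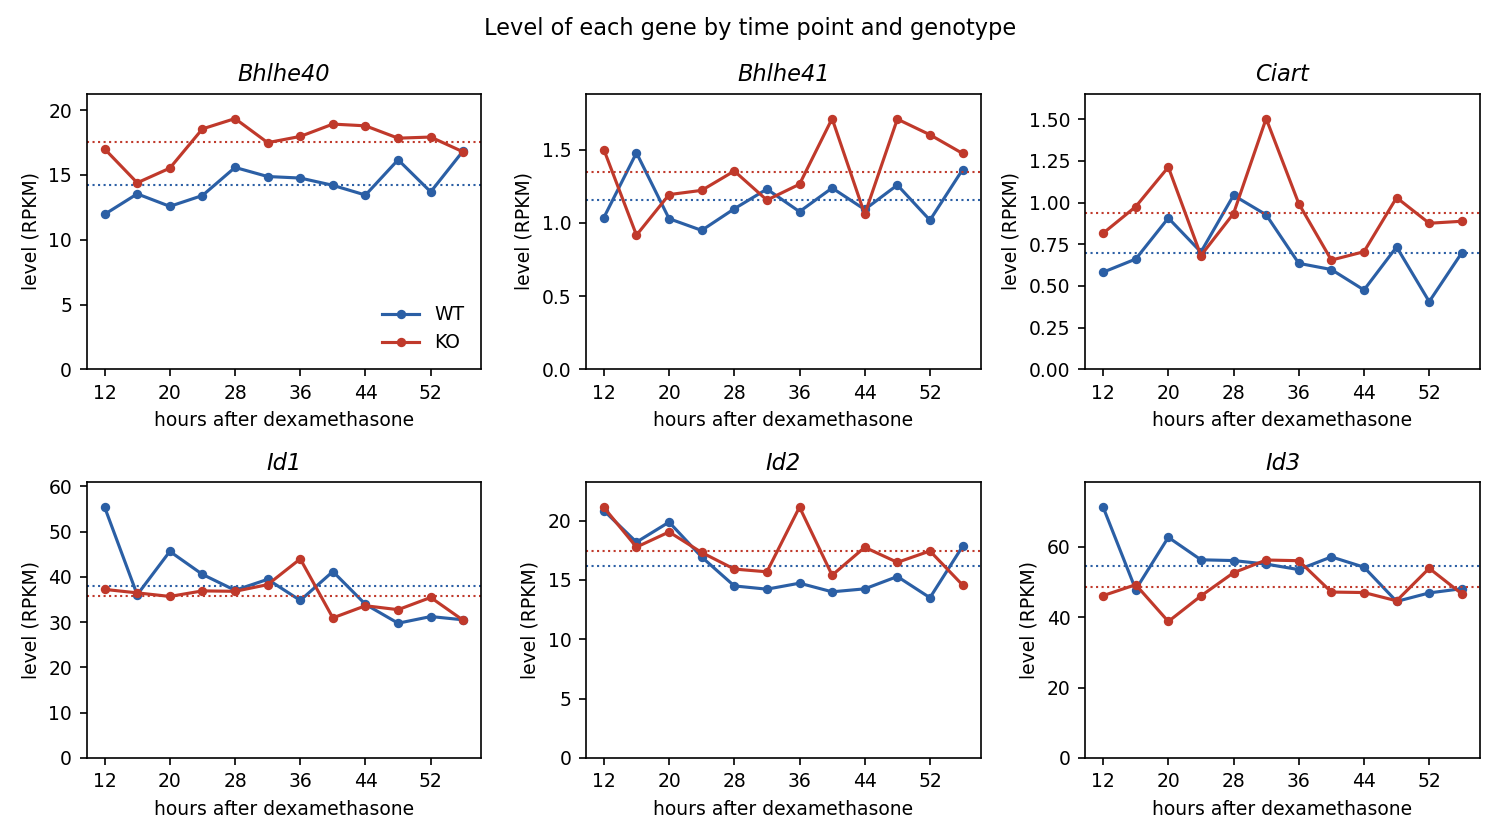
Level of each gene (RPKM, vertical axes from 0) against hours after dexamethasone, in WT (blue) and KO (red), with 1 library per point and dotted lines at the mean of the 12 time points. Bhlhe40 in KO lies above WT at 11 of 12 time points, Ciart at 10 of 12, and the Id genes cross.

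Levels in KO and WT were compared with limma on log2(RPKM + 0.1) over 15112 genes with a mean above 0.5 RPM (the same without the length) in either genotype. All 6 genes passed this filter. An adjusted p under 0.05 was taken as a change, which 25.9% of the genes tested met, with 11.2% higher and 14.7% lower in KO. Of the 6 genes, Bhlhe40 and Ciart rose in KO, 0 fell, and 4 did not pass. The median difference over the 6 genes was 0.15 on the log2 scale, and that over all genes tested was -0.01.

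Bhlhe40 (chromosome 6, 108660629 to 108666925, GRCm38, plus strand), the more abundant of the Dec genes, ranged from 12.0 RPKM at 12 h to 16.9 RPKM at 56 h in WT, with a median of 13.9. In KO it ranged from 14.4 RPKM at 16 h to 19.3 RPKM at 28 h, with a median of 17.9. The ranges overlapped, but 9 of the 12 KO libraries were above every WT library. The log2 difference was 0.30 ± 0.05 (SE), or 1.23-fold with a 95% interval of 1.14 to 1.33 (limma, adjusted p = 3.50e-04). KO was lower only at 56 h, where the ratio of KO to WT was 0.994, and the ratio was largest at 12 h, at 1.42. Of its exonic bases in GENCODE M21, 2.51% are shared with the antisense gene 0610040F04Rik, whose level was 0.891 ± 0.259 RPKM in WT and 1.05 ± 0.134 RPKM in KO, so that reads from these bases cannot be assigned to a strand.

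Ciart (chromosome 3, 95878505 to 95882228, minus strand) ranged in WT from 0.406 RPKM at 52 h to 1.04 RPKM at 28 h, with a median of 0.680. In KO the lowest value was 0.655 RPKM at 40 h, the median 0.911 and the highest 1.504 RPKM at 32 h. The groups overlapped widely, with 2 KO libraries above all of WT, and KO was higher at 10 of 12 time points, the exceptions being 24 and 28 h. The log2 difference was 0.39 ± 0.13 (SE), or 1.31-fold with a 95% interval of 1.09 to 1.57 (limma, adjusted p = 0.0286). The call rests on few reads, 11.5 to 23.5 fragments per WT library and 12.5 to 32.5 per KO library. Without the WT library at 44 h the adjusted p was 0.0518, and over 12 to 32 h alone it was 0.343. With a pseudocount of 1 in place of 0.1 RPKM the log2 difference was 0.19, still past the threshold.

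Bhlhe41 (chromosome 6, 145858243 to 145865420, minus strand) had a WT range of 0.949 to 1.48 RPKM and a median of 1.09. The KO range was 0.917 to 1.71 RPKM with a median of 1.31. KO was higher at 9 of 12 time points, yet the highest WT and the lowest KO value were both at 16 h, where the ratio was 0.620. The log2 difference of 0.19 ± 0.09 (SE), 1.14-fold with an interval of 1.01 to 1.30, did not pass (limma, adjusted p = 0.109). Without the KO library at 16 h the difference was 0.24 and passed (adjusted p = 0.0333). In GENCODE M21, 19.0% of its exonic bases are shared with the unconfirmed transcript Gm43909 on the opposite strand.

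**Figure D2:**
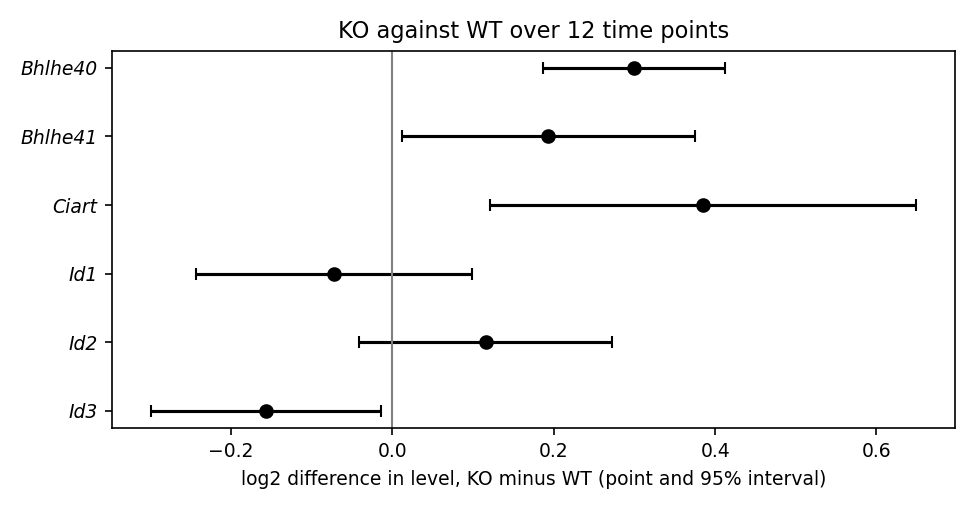
Log2 difference in level, KO minus WT, for the 6 genes, with the point at the limma estimate and bars for the 95% interval over 12 WT and 12 KO libraries. Intervals for Bhlhe40, Bhlhe41 and Ciart lie above 0 and that of Id3 below it, but after adjustment over 15112 genes Bhlhe40 and Ciart alone passed.

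The Id genes did not pass in either direction. Id1 (chromosome 2, 152736251 to 152737410, plus strand) had values from 29.8 to 55.4 RPKM in WT, with a median of 36.5, and from 30.4 to 44.0 RPKM in KO, with a median of 36.1. Its 95% interval for the fold of KO over WT was 0.845 to 1.07. Id2 (chromosome 12, 25093799 to 25096092, minus strand) ranged from 13.5 to 20.9 RPKM in WT and from 14.6 to 21.2 RPKM in KO, with an interval of 0.971 to 1.21. Id3 (chromosome 4, 136143822 to 136145392, plus strand) ranged from 44.5 to 71.3 RPKM in WT, with a median of 54.7, and from 38.8 to 56.3 RPKM in KO, with a median of 47.1. Its interval was 0.812 to 0.990, with an adjusted p of 0.0966 in limma, and under quantile normalization it passed (log2 difference -0.19, adjusted p = 0.0423), as it did without the WT library at 48 h (-0.18, adjusted p just under the threshold). The log2 difference of Id3 was -0.27 over 12 to 32 h alone and -0.04 over 36 to 56 h alone. Without the 12 h time point it was -0.11, and it passed in none of these settings. For the other 2 genes the adjusted p was 0.552 (Id1) and 0.278 (Id2). All 3 Id genes had their highest WT value at 12 h. At that time Id1 and Id3 were at 37.2 and 46.1 RPKM in KO, while Id2 was at 21.1 RPKM in KO and 20.9 RPKM in WT.

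**Figure D3:**
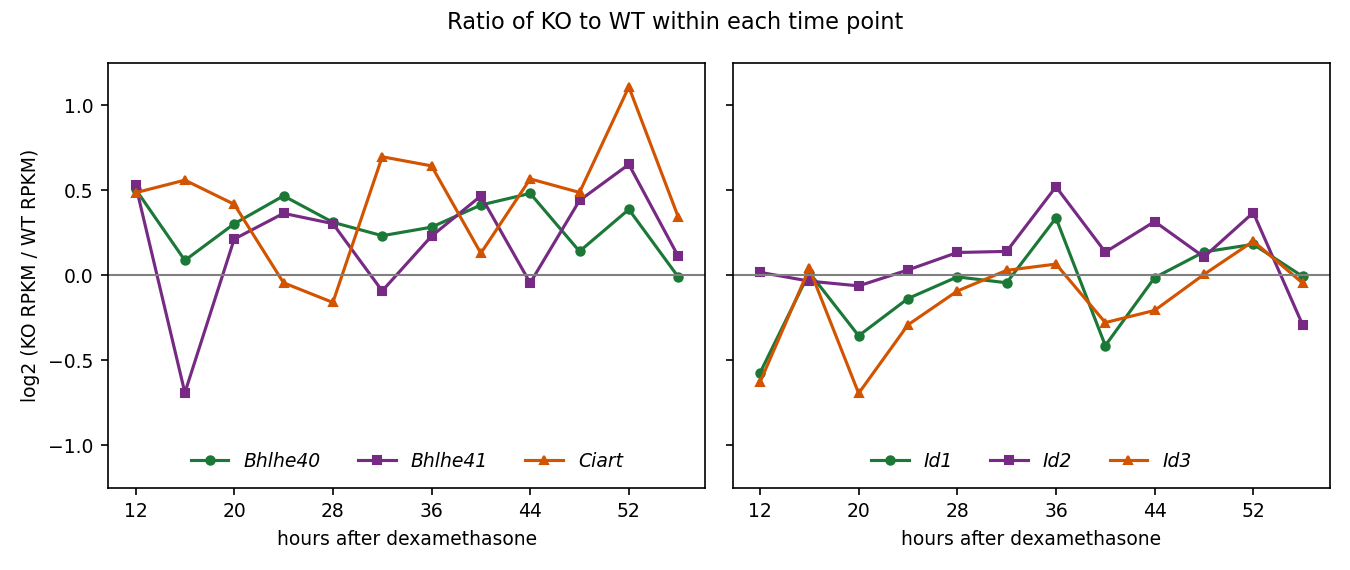
Log2 ratio of KO to WT RPKM within each time point, with Bhlhe40, Bhlhe41 and Ciart on the left and Id1, Id2 and Id3 on the right. Points above 0 are higher in KO, the highest ratios of Ciart and Bhlhe41 are both at 52 h, at 2.16 and 1.57, and the lowest of Bhlhe41 is at 16 h, at 0.620.

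Genes with a 24 h rhythm were sought in the same libraries with a cosine and a sine term and a linear trend in each genotype, and tested by the moderated F test of limma. Here 0.0463% of the genes tested passed in WT and 0.0728% in KO. Of 10 E-box-controlled genes of the clock, 6 passed in WT, with log2 amplitudes (the distance from the fitted mean to the peak) from 0.43 (Tef) to 0.71 (Per2). In KO 8 passed, from 0.45 (Cry1) to 0.88 (Dbp). Per1 (0.11), Cry2 (0.28), Hlf (0.37) and Nr1d1 (0.39) did not pass in WT, nor Per1 (0.09) and Cry2 (0.17) in KO. Of the 6 repressor genes, 0 passed in WT and 0 in KO, with unadjusted p from 0.398 to 0.916 in WT and from 0.104 to 0.775 in KO. At an unadjusted p under 0.05 stood 7.57% of all genes in WT and 7.92% in KO. A rank test against cosine templates multiplied the lowest p by the number of templates, with a cap at 1. It gave p = 1 for the 6 genes in both genotypes other than Id3 in KO (p = 0.378). In this test 1.18% of all genes in WT and 1.3% in KO had a p under 0.05. A p at the cap does not show that a rhythm is absent.

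Bhlhe40 had an amplitude of 0.06 in WT and 0.05 in KO, where the SE of each rhythm term was at most 0.05. Those of Bhlhe41 were 0.11 and 0.07 (SE at most 0.09). The amplitude of Ciart was 0.20 in WT (unadjusted p = 0.398 by the moderated F test of limma), with a fitted peak at 4.23 h of the 24 h cycle counted from dexamethasone. In KO it was 0.17 (unadjusted p = 0.472), with a peak at 6.68 h. The SE of its rhythm terms was up to 0.14. Amplitudes of Id1, Id2 and Id3 lay between 0.03 and 0.06 in WT and between 0.06 and 0.14 in KO. The difference in rhythm between KO and WT did not pass in any of the 6 genes (unadjusted p from 0.414 to 0.969), and across all genes 0 passed, with 4.82% at an unadjusted p under 0.05.

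**Figure D4:**
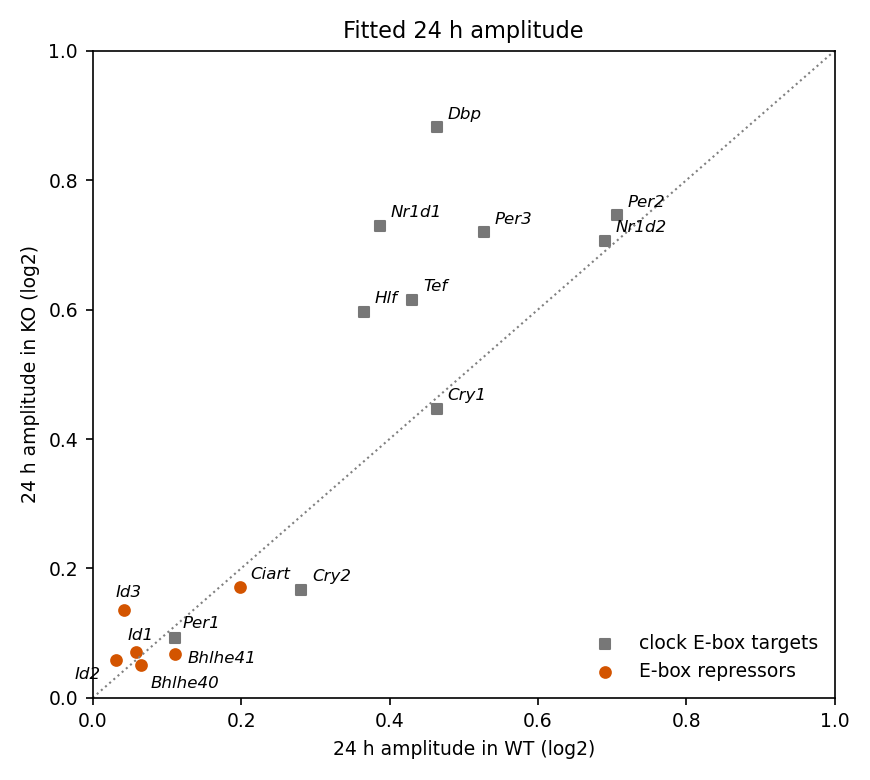
Fitted 24 h amplitude on the log2 scale in WT (horizontal) and KO (vertical) for the 6 repressor genes (circles) and 10 clock genes under E-box control (squares), with equality as a dotted line. The repressor genes reach 0.20 in WT and 0.17 in KO, and the clock genes span 0.11 (Per1) to 0.71 (Per2) in WT and 0.09 (Per1) to 0.88 (Dbp) in KO, so that Per1 lies within the range of the repressor genes in both.

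Change across the 2 days was tested as a linear trend shared by both genotypes, which passed for 4.37% of genes rising and 3.95% falling. Id1 was the member that changed. It fell by 0.24 ± 0.06 on the log2 scale per 24 h (SE, limma, adjusted p = 0.0195). Its mean from 12 to 32 h was 42.4 RPKM in WT and in KO 36.9, and from 36 to 56 h these means were 33.6 and 34.5. Fitted separately, the slopes were -0.33 (WT) and -0.14 (KO), with an unadjusted p of 0.118 for their difference, and 6.38% of all genes had such a p under 0.05 while 0 passed after adjustment. Without the WT library at 12 h, the highest of all, the shared slope was -0.19 with an adjusted p of 0.0519. Of the cell type markers, 1 of 4 smooth muscle genes fell as well, Tagln (-0.21 per 24 h). Acta2 (-0.10), Cnn1 (-0.11) and Myh11 (0.08) did not pass. Of the 4 macrophage genes 2 rose, Cd68 (0.25) and Adgre1 (0.18), while Ptprc (-0.09) and Csf1r (-0.03) did not pass. The part of these cells in the trend of Id1 was not tested. The trend of Id2 was -0.16 ± 0.06 per 24 h (adjusted p = 0.127, or -0.21 and 0.0352 without the WT library at 56 h) and that of Id3 -0.09 ± 0.06 (adjusted p = 0.439). Bhlhe40, Bhlhe41 and Ciart had trends of 0.10 ± 0.04, 0.14 ± 0.08 and -0.22 ± 0.12, with adjusted p from 0.196 to 0.334. For Id3 the slope was -0.20 in WT and 0.02 in KO (unadjusted p of the difference 0.0601).

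Fluctuations across the 24 libraries, each genotype centred on its own mean, were compared as a description, since these genes share libraries and their depth. Trends over time were not taken out, so the values of r hold them. In WT the library at 12 h was the highest for Id1 and Id3 and the lowest for Bhlhe40. Id1 and Id3 had a Pearson r of 0.79 over 24 libraries, with 0.94 in WT and 0.49 in KO. For Id1 and Id2 it was 0.59, with 0.56 in WT and 0.68 in KO. Bhlhe40 and Bhlhe41 had r = 0.46, with 0.50 in WT and 0.46 in KO. Bhlhe40 and Id1 had r = -0.51, with -0.74 in WT and -0.06 in KO. The pairs above were those with the largest r in size over the 24 libraries. Every other pair of these genes had r between -0.36 (Bhlhe40 and Id2) and 0.26 (Id2 and Id3). For Id2 and Id3, r was 0.46 in WT and -0.07 in KO. For Bhlhe40 and Id3 it was -0.27 and differed in sign between genotypes, with -0.67 in WT and 0.32 in KO. Among 12043 other genes compared, the pattern of Id1 was most like those of Dusp6 (r = 0.85), an ERK phosphatase, Cars2 and Tm2d2, and that of Id2 like those of Gcsh (r = 0.86), Hnrnpl and Ccnb2, the B2 cyclin. Id3 was most like Procr (r = 0.84), the protein C receptor, Btg2 and Smad6, an inhibitor of BMP signalling. Bhlhe41 was most like Nos2 (r = 0.78), the inducible nitric oxide synthase, Slc25a25 and 1500009L16Rik. For Bhlhe40 the likeness was lower, with AK196015 (r = 0.71), Acot2 and Mmp8, and for Ciart lower still, with AB345004 (r = 0.69), Pvrl3 and Epha3.

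The activators and other targets of E-boxes gave the setting for these values. The counts below stand beside 11.2% higher and 14.7% lower in KO among all genes tested. Of 4 activators, 3 were higher in KO, namely Npas2 (log2 difference 0.62), Arntl2 (0.52) and Bmal1 (Arntl, 0.41), and 0 were lower. Of the 10 E-box-controlled clock genes, 1 was higher, Nr1d2 (0.76), and 0 lower, with a median difference of 0.02. Nr1d2 is itself a Rev-erb gene with an exon deleted in KO. With the time point fitted as a replicate block, 3 were higher and 1 lower. Cry1 (0.21) and Dbp (0.49) were then higher besides Nr1d2, and Per2 (-0.33) was lower. Ciart and Bhlhe40 carried differences of 0.39 and 0.30 on the same scale. The Hes and Hey genes belong, like Dec1 and Dec2, to the bHLH-Orange family. Of the 10 listed, 5 were tested, and 2 of these were higher in KO, Heyl (0.40) and the Notch target Hes1 (0.31), and 0 lower. E proteins, which ID proteins bind, were counted together with their tissue-specific bHLH partners. Of 23 listed, 15 were tested, with 3 higher, Scx (0.46), Msc (0.41) and Hand1 (0.28), and 1 lower, Twist1 (-0.17), and the median was 0.07. These 4 are partners, and the E protein genes Tcf3 (0.10), Tcf4 (-0.07) and Tcf12 (-0.06) did not pass. In either direction 25.9% of all genes tested passed.

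In the BMP-SMAD pathway, 25 of 25 listed genes were tested, with 5 higher, 5 lower and a median of -0.02. Among all genes tested 11.2% were higher and 14.7% lower. The 3 named by size were Grem1 (0.66), a BMP antagonist, the fourth family member Id4 (-0.60) and Fst (0.45), the antagonist follistatin. The mean level of Id4 was 1.77 RPKM in WT, and its adjusted p was 0.0129 in limma. Whether its difference departs from those of Id1, Id2 and Id3 was not tested. Named after their values were seen, the others that passed were Acvrl1 (0.39), Bmpr1b (0.33) and the ligand Bmp4 (0.11) on the higher side, and Bambi (-0.36), Gdf6 (-0.28), Smad9 (-0.24) and Smad5 (-0.10), signal transducers of the pathway in the last 2 cases, on the lower side. Over time 1 of the 25 genes rose, Bmp4 (0.09 per 24 h), and 2 fell, the decoy receptor gene Bambi (-0.25) and Eng (-0.22), beside the 4.37% rising and 3.95% falling of all genes tested.

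Depth and cell content varied as follows. Libraries held 6183500.5 to 10287969 fragments on exons. Because 1 exon was deleted, gene-level values do not check the knockout, and Rev-erbα (Nr1d1) had 5.04 ± 1.26 RPKM (WT) and 6.39 ± 2.67 RPKM (KO), and Rev-erbβ (Nr1d2) 1.85 ± 0.746 and 3.22 ± 1.34 RPKM. Markers that passed are named here after their values were seen, beside 11.2% higher and 14.7% lower in KO among all genes tested. Smooth muscle markers were higher in KO for 3 of 4 genes (Tagln, Cnn1 and Myh11), with summed levels of 233 to 323 RPKM in WT and 246 to 361 RPKM in KO. Cardiac markers were higher for 4 of 5 entries (Myl7, Myh6 and Nppa, which has 2) and lower for Tnnt2. Their sums were 39.2 to 66.6 RPKM in WT (median 57.7) and 44.4 to 79.8 RPKM in KO (median 53.5). Tnnt2 was the largest part of these sums, with means of 46.3 RPKM in WT and 37.3 in KO. Of the 4 neuronal markers 2 were lower, Elavl3 and Snap25 (3.26 to 31.7 and 1.85 to 10.7 RPKM). Stmn2 (log2 difference -1.03) and Tubb3 (-0.87) did not pass. Of the 4 endothelial markers 1 was higher, Pecam1 (5.11 to 18.0 and 8.68 to 16.1 RPKM). Cdh5 (0.62), Kdr (0.21) and Tek (-0.13) did not pass. Of the macrophage and the cartilage and bone markers 1 of 4 each was higher, Adgre1 and Sox9. The others of these lists did not pass and had log2 differences of either sign. Cd68 (0.18) and Runx2 (0.13) were positive, and Ptprc (-0.03), Csf1r (-0.001), Col2a1 (-0.63) and Acan (-0.50) negative. Of the endoderm and yolk sac markers 0 of 4 passed. Red blood cell markers were below the filter, and of the 5 pluripotency markers only Pou5f1 was above it and did not pass, with summed levels of up to 6.28 RPKM in WT and 3.51 RPKM in KO. The part of these cell types in the levels of Bhlhe40 and Ciart was not tested, and in such bulk samples fewer cells of a type and less RNA per cell cannot be told apart.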

How the data were processed

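PolyA-selected RNA of 24 libraries was sequenced as 101-bp paired-end reads. After trimming (Trimmomatic 0.36) and alignment to GRCm38 (STAR 2.5.4b, both versions from the submitters' processing notes), the authors kept alignments of mapping quality 10 or more, counted these on exons of UCSC known canonical genes with Homer and deposited RPKM, with the exonic length in bases, for 33079 genes. RPKM are scaled to the library total and no count test was used. Fragments, used for depth only, were RPKM times length and total. The library kit does not mark strand. Samples were grouped by the genotype in their labels.

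Levels, rhythms (24 h cosine and sine with a linear trend per genotype) and trends were fitted with limma 3.58.1 in R 4.3.3 to log2(RPKM + 0.1) of the genes above 0.5 RPM, with Benjamini-Hochberg adjustment over all genes tested, and the scripts were tested on simulated data. The pseudocount shrinks differences of genes with low levels such as Ciart. MetaCycle, the study's method, was not at hand. A rank test against cosine templates of 20, 24 and 28 h, after JTK_CYCLE and with tied template values kept as ties, served as an alternative. Other steps used Python 3.11.15, numpy 2.4.6, pandas 2.3.3 and matplotlib 3.10.9.

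The genes, lists (clock activators and targets, Hes and Hey, E proteins and partners, BMP-SMAD, cell type markers), motifs and tests were chosen with earlier results of these data known. Per list the 3 genes with the largest difference among those that passed were named, and per member the 3 genes most like it among those with a mean of at least 1 RPKM. Alternatives changed the pseudocount, filter, scaling, block, covariates, period, trend and time points.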

Additional observations from a re-analysis of the deposited data

How the results depend on the processing

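Bhlhe40 stayed past the threshold in each of the 12 other settings of the level comparison, with log2 differences from 0.28 to 0.32 and adjusted p of at most 0.0422. Ciart, left out by a minimum of 1 RPKM, kept its direction in the other 11 (0.19 to 0.48). Over 36 to 56 h alone the level difference of Id1 changed sign, to 0.0378. The difference in amplitude, KO minus WT, changed sign with quantile normalization in Bhlhe41 (0.0315), without the 12 h time point in Ciart (0.00472), with a period of 22 h in Bhlhe40 (0.0308), Ciart (0.0408) and Id2 (-0.0265), and without the linear trend in Bhlhe41 (0.0356), Ciart (0.0424) and Id1 (-0.0961), and passed in none of these. Id2 passed the trend test when the 24 h terms were left out (adjusted p = 0.0387). Besides these 9 values, 290 for the 6 genes under other settings kept their side of the threshold and any direction they have, and 3 changed side. With 1 library left out, an addition made after seeing the data, 283 kept both and 5 changed side, each given in the report. With 1 library left out, the genes called numbered 3379 to 4163 for the level and 1016 to 1288 for the trend.

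Fewer time points gave fewer calls for the level, 1115 over 12 to 32 h and 1903 over 36 to 56 h, against 3918. Genes rhythmic in WT numbered 7, and 4 without a filter, 2 with a period of 22 h and 1 with 26 h. In KO there were 11, and 5 with 22 h and 6 with 26 h. The rank test called 0 in each genotype, with 178 genes in WT and 196 in KO at an unadjusted p under 0.05. For the difference in rhythm the count went from 0 to 1 without the 12 h time point and to 1 without the linear trend. The causes of these shifts were not tested.

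WT and KO libraries of 1 time point share no number other than the time. Over 11872 genes their deviations correlated at -0.23 to 0.42, above 0.1 in 9 of 12 pairs. With the time point as a replicate block 4212 genes were called for the level, 0 for the difference in rhythm and 0 for the difference in trend, and no call of the 6 genes changed. Of the listed genes 6 lost and 9 gained a call for the level. Clock genes under E-box control went from 1 higher and 0 lower to 3 and 1, with Cry1 and Dbp higher and Per2 lower. Twist1, Smad5, Smad9, Bmpr1b, Myh11 and Myh6 were lost, and Bmpr1a, Eng, Kdr, Cdh5, Stmn2 and Cd68 were the other gains. Scaling moved the median of all genes by less than 0.1 on the log2 scale. Depth limits Ciart most.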
